A study of Mus musculus with 5 samples.

Results

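The insulin and insulin-like growth factor (IGF) axis was followed through 10 genes in sorted luminal cells of the mouse mammary gland, the epithelial cells that line the lumen of ducts and alveoli. The genes were *Igf1*, *Igf1r*, *Insr*, *Irs1*, *Irs2*, *Igfbp2*, *Igfbp3*, *Igfbp4*, *Igfbp5* and *Igfbp6*. They were taken by name, and all 10 were found among the 24319 genes of the table. The bulk RNA-seq set has 5 libraries, of which replicates 1, 2 and 3 are labelled wild type (WT) and replicates 4 and 5 are labelled *Brca1* knockout (*Brca1* KO). The methods describe luminal cells sorted as CD24 high and CD29 low from mice of a mixed C57BL/6 and 129/Sv background, in which an MMTV-Cre transgene, active in mammary epithelium, deletes floxed *Brca1* (*Brca1* fl/fl). They treat the luminal cells of the bulk comparison as BRCA1-deficient, whereas the labels give 3 WT libraries, and the extraction text of the labels speaks of tumors. Whether the WT libraries carry the Cre transgene, whether each gland came from a young adult virgin or a mid-pregnant female, and whether libraries came from separate animals are not given in the sources used here. The p-values therefore measure only the spread between these libraries, which may be technical.

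IGF1 and insulin are hormones that bind the receptor tyrosine kinases IGF1R and INSR, and the activated receptors signal through the adaptors IRS1 and IRS2 to PI3 kinase, AKT and mTOR. The IGF binding proteins (IGFBPs) are secreted carriers that hold IGFs outside the cell and set how much reaches the receptor. In the mammary gland, IGF1 made largely by the stroma under growth hormone acts on epithelium during ductal growth, and IGFBP5 is known for its increase in the epithelium as the gland involutes.

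The libraries were not alike, and this bears on every member. *Brca1* itself stood at 1.30, 1.32 and 0.234 FPKM in WT replicates 1, 2 and 3 and at 1.2 and 1.34 FPKM in *Brca1* KO replicates 4 and 5, so its gene-level value did not separate the labels. FPKM is the number of fragments of a gene scaled to the length of its transcript and to the mapped fragments of the library. Luminal keratin and adhesion markers summed to between 6457 and 10412 FPKM in all libraries, and adipocyte markers to at most 0.871 FPKM. WT replicate 3 stood apart, with 5 mature luminal markers summing to 352 FPKM against 11.5 to 23.0 FPKM in the other libraries, and with 6 basal markers summing to 7.38 FPKM against 39.6 to 129 FPKM. *Krt14* made up most of the basal sum in the other 4 libraries, and 3 of the 6 basal markers were lowest in that library. The 7 luminal progenitor and alveolar markers, mostly *Csn2*, summed to 13246 FPKM in WT replicate 3 against 28192 to 37625 FPKM elsewhere. Of the 7, 4 were lowest and 2 highest in WT replicate 3. Stromal markers varied within the WT label, since 6 fibroblast markers summed to 3.0, 109 and 86.0 FPKM in WT replicates 1, 2 and 3 and to 3.86 and 12.6 FPKM in the *Brca1* KO libraries. The estimated depth was 6290000, 13200000 and 30200000 fragments for the WT libraries and 6380000 and 21700000 for the *Brca1* KO libraries. In bulk libraries, fewer cells of a type and less RNA per cell cannot be told apart.

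The genes divided into a few that were high in every library and several that were near the floor. *Igfbp5* and *Irs2* stood in the top of the transcriptome, at the 98.6 and 95.1 percentiles of all genes by mean level. On the FPKM scale, which corrects for transcript length, the order of mean level was *Igfbp5*, *Irs2*, *Insr*, *Igfbp4*, *Irs1*, *Igf1r*, *Igfbp6*, *Igfbp2*, *Igfbp3* and *Igf1*. *Igfbp5* was above *Irs2*, and *Irs2* above *Insr*, in 5 of 5 libraries without overlap of their ranges. *Igfbp3* was also above *Igf1* in 5 of 5 libraries, although their ranges overlapped. The other neighbours in that order overlapped in range and changed places in at least 1 library. Of the 10 members, 8 had a mean of at least 1 FPKM and were tested between the labels, while *Igf1* and *Igfbp3* were below this minimum. *Igfbp2*, *Igfbp4* and *Igfbp6* reached it only through WT libraries, since both *Brca1* KO values of each were under 1 FPKM. The minimum therefore favoured a lower level in *Brca1* KO for them.

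**Figure D1:**
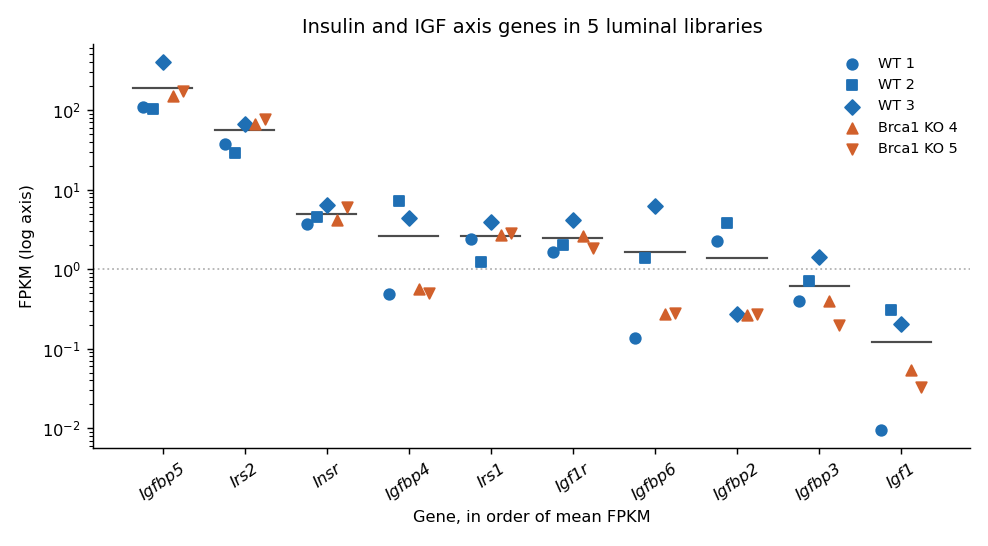
FPKM (log axis) of the 10 insulin and IGF axis genes, ordered by mean FPKM, in each of the 5 libraries (blue, WT; orange, *Brca1* KO); the horizontal bars mark the mean over the libraries and the dotted line marks 1 FPKM. *Igfbp5* lies between 103 and 398 FPKM and *Irs2* between 28.9 and 77.9 FPKM, whereas *Igf1* stays under 1 FPKM throughout.

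The promoters of the most abundant binding protein, of its neighbour on chromosome 1 and of the most abundant adaptor are shown because the contrast in level between *Igfbp5*, *Igfbp2* and *Irs2* runs through the results. The 250 bases before the RefSeq transcript start were taken from RefSeq (GRCm38.p6) and are written 5′ to 3′ on the gene's strand. Capitals mark the letters of a TATA box (TATAAA), a GC box (GGGCGG) or a CCAAT box (CCAAT) on either strand. The windows are *Igfbp5* at chr1:72874866-72875115 on the minus strand, *Igfbp2* at chr1:72824230-72824479 on the plus strand, and *Irs2* at chr8:11008930-11009179 on the minus strand.
Igfbp5: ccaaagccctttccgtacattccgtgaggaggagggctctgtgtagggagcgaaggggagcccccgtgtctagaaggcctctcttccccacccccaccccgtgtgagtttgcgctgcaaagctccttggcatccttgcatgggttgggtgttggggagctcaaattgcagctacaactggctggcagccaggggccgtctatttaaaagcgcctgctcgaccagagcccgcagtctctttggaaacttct
Igfbp2: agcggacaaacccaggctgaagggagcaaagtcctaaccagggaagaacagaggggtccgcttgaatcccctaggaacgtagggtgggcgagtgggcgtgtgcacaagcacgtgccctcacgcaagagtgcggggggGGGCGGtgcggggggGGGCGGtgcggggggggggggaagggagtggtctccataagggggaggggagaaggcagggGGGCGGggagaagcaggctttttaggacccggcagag
Irs2: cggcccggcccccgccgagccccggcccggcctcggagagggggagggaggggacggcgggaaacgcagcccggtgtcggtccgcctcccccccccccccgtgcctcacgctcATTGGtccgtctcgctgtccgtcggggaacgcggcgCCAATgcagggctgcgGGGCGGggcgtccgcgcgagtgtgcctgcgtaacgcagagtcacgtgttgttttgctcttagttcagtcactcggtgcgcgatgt
The *Igfbp2* window held 3 GC boxes, and a second RefSeq window of *Igfbp2* (chr1:72825137-72825386, not printed) held 11 CpG and none of these letters. The *Irs2* window held 1 GC box and 2 CCAAT boxes. These letters occur in 32.7% (GC box), 33.8% (CCAAT box) and 12.4% (TATA box) of 32851 windows of the same length. None of them lay in the *Igfbp5* window, which says only that these letters are not in this stretch. CpG dinucleotides numbered 10 in the *Igfbp5* window, 14 in the *Igfbp2* window and 34 in the *Irs2* window, against a median of 6 over all windows. A window was found for 9 of the 10 members.

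The ligand came first in the pathway and last in level. *Igf1*, on the plus strand of chromosome 10 (87858265 to 87937042, GENCODE M21 on GRCm38) and overlapped by *Igf1os* on the other strand, was at 0.00956, 0.307 and 0.204 FPKM in WT replicates 1, 2 and 3 and at 0.0547 and 0.0331 FPKM in *Brca1* KO replicates 4 and 5. These values correspond to an estimated 0.424, 28.5, 43.6, 2.46 and 5.07 fragments, so no fold change is given. WT replicates 2 and 3 were the higher ones and WT replicate 1 was the lowest of all, so the labels overlapped. The 2 libraries with the higher *Igf1* were also the 2 with high fibroblast markers; whether the stromal RNA gave the *Igf1* fragments was not tested.

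Other ligands of the axis were read from a list of further ligands and carriers. *Igf2*, the second IGF ligand, was at 7.77, 5.76 and 1.22 FPKM in the WT libraries and at 1.26 and 0.457 FPKM in the *Brca1* KO libraries. WT replicates 1 and 2 were high, and WT replicate 3 lay at the level of the *Brca1* KO libraries. The difference between the labels was -1.49 (log2, *Brca1* KO minus WT, on the log2(FPKM + 1) scale, SE 0.64), with an adjusted p of 0.92 in limma with Benjamini-Hochberg adjustment. *Ins1* and *Ins2*, which encode insulin, and *Igfbp1* were listed at 0 in all libraries.

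Both receptors were expressed at low to moderate levels. *Igf1r* (plus strand of chromosome 7, 67952827 to 68233668) stood at 1.63, 2.0 and 4.19 FPKM in the WT libraries and at 2.60 and 1.85 FPKM in the *Brca1* KO libraries. *Insr* (minus strand of chromosome 8, 3122061 to 3279617) stood at 3.73, 4.5 and 6.43 FPKM under the WT label and at 4.13 and 5.97 FPKM under the *Brca1* KO label. For each receptor WT replicate 3 was the highest library and the labels overlapped. *Insr* exceeded *Igf1r* in 5 of 5 libraries, by 2.29, 2.25 and 1.53 times in the WT libraries and by 1.59 and 3.22 times in the *Brca1* KO libraries. The mean ratio of their FPKM was 2.18 ± 0.684 (SD, n = 5), and the label ranges of this ratio overlapped.

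The scavenger receptor *Igf2r*, which removes IGF2 from the cell surface, was steadier than either signalling receptor, at 12.5 to 15.5 FPKM over the 5 libraries. *Grb10*, an adaptor that binds and restrains both receptors, ran from 2.07 to 3.73 FPKM. *Insrr*, the third member of the receptor family, was listed at 0 in all libraries.

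The adaptors differed strongly in level. *Irs2* (minus strand of chromosome 8, 10984681 to 11008458) stood at 37.8, 28.9 and 67.1 FPKM in the WT libraries and at 66.3 and 77.9 FPKM in the *Brca1* KO libraries. *Brca1* KO replicate 5 was the highest, and WT replicate 3 lay between the *Brca1* KO libraries, so the labels overlapped through that library. *Irs1* (minus strand of chromosome 1, 82233101 to 82291416) stood at 2.38, 1.25 and 3.87 FPKM in the WT libraries and at 2.68 and 2.89 FPKM in the *Brca1* KO libraries. WT replicate 3 was again above both *Brca1* KO libraries and WT replicates 1 and 2 below them. *Irs2* exceeded *Irs1* by 15.9, 23.2 and 17.3 times in the WT libraries and by 24.7 and 27.0 times in the *Brca1* KO libraries, with a mean ratio of 21.6 ± 4.78 (SD, n = 5). The gene 9530052E02Rik overlaps *Irs2* on the opposite strand, and the library kit does not mark strand, so reads of the pair cannot be told apart. The same limit holds for *Irs1*, overlapped by Gm9747, and for *Insr*, overlapped by Vmn2r-ps88 and Gm16180, all on the opposite strand.

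Among the binding proteins of the member list, *Igfbp5* made up nearly all of the measured level. *Igfbp5* (minus strand of chromosome 1, 72857932 to 72874884) stood at 109, 103 and 398 FPKM in the WT libraries and at 152 and 176 FPKM in the *Brca1* KO libraries. WT replicate 3 was far above the rest, and WT replicates 1 and 2 were the lowest. *Igfbp5* held 97.1%, 88.7% and 97.0% of the summed FPKM of the listed binding proteins in the WT libraries. In the *Brca1* KO libraries it held 99.0% and 99.3%. *Igfbp2*, *Igfbp3*, *Igfbp4* and *Igfbp6* together came to 3.28, 13.1 and 12.2 FPKM in the WT libraries. Their sum was 1.49 and 1.24 FPKM in the *Brca1* KO libraries. Every WT library was above every *Brca1* KO library in that sum. Of all genes tested, 5.77% showed this singly, but a share of single genes is no measure for a sum. Of the genes in the sum, only *Igfbp3*, which was below the minimum level, separated the labels alone. The gene that led the sum differed among the WT libraries, with *Igfbp2* in replicate 1, *Igfbp4* in replicate 2 and *Igfbp6* in replicate 3. Each of these genes reached the minimum level only through WT libraries.

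*Igfbp2*, which lies tail to tail with *Igfbp5* on chromosome 1 (72824503 to 72852474 on the plus strand, 5457 bases between the genes), did not share its pattern. *Igfbp2* was at 2.26, 3.8 and 0.271 FPKM in the WT libraries and at 0.264 and 0.272 FPKM in the *Brca1* KO libraries. WT replicates 1 and 2 were high, and WT replicate 3 lay within the *Brca1* KO range. WT replicate 3 therefore had the most *Igfbp5* and the second lowest *Igfbp2* of the libraries. *Brca1* KO replicate 4 rested on an estimated 2.2 fragments of *Igfbp2*. The basal marker sum was also lowest in WT replicate 3, at 7.38 FPKM, but stood at 39.6 and 61.4 FPKM in the *Brca1* KO libraries, and its part in the *Igfbp2* values was not tested.

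*Igfbp4* and *Igfbp6* were high in WT replicates 2 and 3 alone. *Igfbp4* (plus strand of chromosome 11, 99041244 to 99054392), whose product is among the IGFBPs cut by the protease PAPPA, was at 0.482, 7.20 and 4.39 FPKM in the WT libraries and at 0.558 and 0.496 FPKM in the *Brca1* KO libraries. *Igfbp6* (plus strand of chromosome 15, 102144362 to 102149511), whose product prefers IGF2, was at 0.138, 1.38 and 6.18 FPKM under the WT label and at 0.273 and 0.281 FPKM under the *Brca1* KO label. WT replicate 1 lay below both *Brca1* KO libraries for each gene, so the labels overlapped. *Igfbp3* (minus strand of chromosome 11, 7206086 to 7213923), the main carrier of IGFs in serum, was at 0.401, 0.706 and 1.41 FPKM in the WT libraries and at 0.398 and 0.196 FPKM in the *Brca1* KO libraries. It was the 1 member of 10 whose label groups did not overlap, lower in *Brca1* KO, as 5.77% of all genes tested were. The margin was 0.401 against 0.398 FPKM, with an estimated 6.11 and 6.14 fragments behind those values. *Igfbp3* was below the minimum level for the test.

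*Igf1*, *Igfbp3*, *Igfbp4* and *Igfbp6* were higher in WT replicates 2 and 3 than in the other 3 libraries. The summed fibroblast, endothelial and immune markers were also higher there. How many of all genes shared this order was not counted. All 6 fibroblast genes were detected in every library. The matrix gene *Dcn* was at 0.445, 10.3 and 51.3 FPKM in the WT libraries and at 0.560 and 1.22 FPKM in the *Brca1* KO libraries. Only 2 of the 6 fibroblast genes, *Dcn* among them, were highest in WT replicate 3, and the rest were highest in WT replicate 2. The 5 endothelial markers summed to 2.12, 7.86 and 20.9 FPKM in the WT libraries and to 1.64 and 0.771 FPKM in the *Brca1* KO libraries. The 6 immune markers summed to 3.82, 53.9 and 17.5 FPKM in the WT libraries and to 3.64 and 3.52 FPKM in the *Brca1* KO libraries. The part of these cells in the values of these members was not tested.

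**Figure D2:**
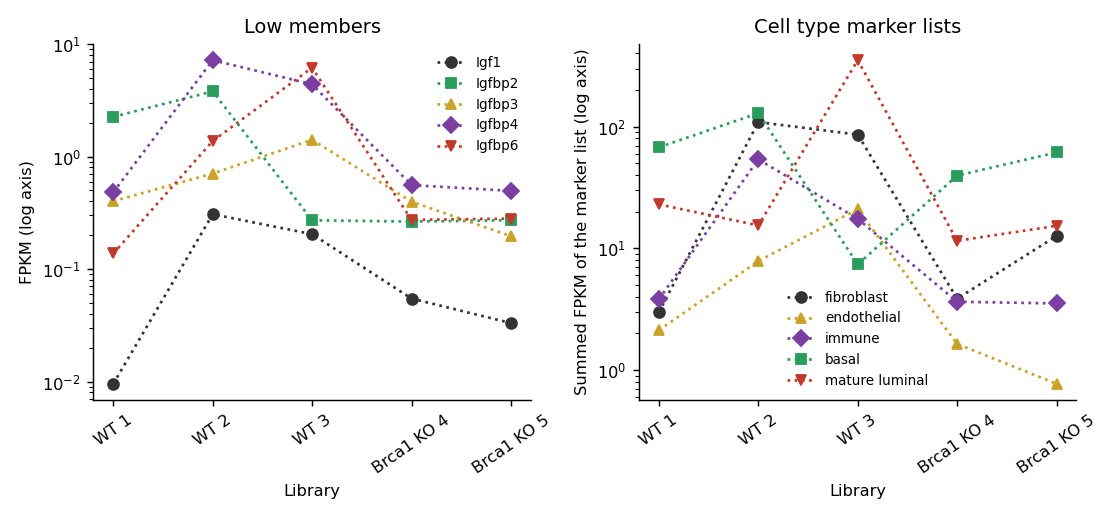
Left, FPKM (log axis) of *Igf1*, *Igfbp2*, *Igfbp3*, *Igfbp4* and *Igfbp6* in each library. Right, summed FPKM (log axis) of 5 cell type marker lists in the same libraries. Dotted lines only join points of one gene or list. *Igf1*, *Igfbp3*, *Igfbp4* and *Igfbp6* are higher in WT 2 and WT 3 than in the other libraries, as are the fibroblast, endothelial and immune sums. *Igfbp2* is high in WT 1 and WT 2, and the basal sum is highest in WT 2 and lowest in WT 3.

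*Igfbp6* had the widest range of the members on the log2(FPKM + 1) scale, at 2.66. The 5 genes whose values over the 5 libraries lay closest to it, by the root mean square difference after centring among 11481 genes, were *Cdh13* (0.060), *Irak3* (0.090), *Clec3b* (0.12), *Cd2* (0.12) and *Ank* (0.12). *Irak3* was at 1.57, 3.59 and 13.3 FPKM in the WT libraries and at 1.56 and 1.41 FPKM in the *Brca1* KO libraries. Each of these 5 genes was highest in WT replicate 3 and second in WT replicate 2, an order largely set by their choice for likeness to *Igfbp6*.

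The comparison of the labels asks whether *Brca1* loss goes with a different IGF axis in luminal cells. By limma on log2(FPKM + 1) with Benjamini-Hochberg adjustment, 0 of 8 members and 0 of 11481 genes (0%) passed an adjusted p of 0.05. At an unadjusted p under 0.05, limma had 0 of 8 members and 372 of all genes (3.24%). On this scale, which understates the change of low genes, *Irs2* differed by 0.76 (log2, *Brca1* KO minus WT, SE 0.38) with an adjusted p of 0.92 from limma. *Irs1* differed by 0.18 (SE 0.37), *Insr* by 0.048 (SE 0.28), *Igf1r* by -0.11 (SE 0.37) and *Igfbp5* by -0.011 (SE 0.64). Each of those 4 differences was smaller than its standard error, with adjusted p from 0.952 to 0.999 in limma. *Igfbp4* differed by -1.40 (SE 0.75), *Igfbp2* by -1.10 (SE 0.60) and *Igfbp6* by -1.07 (SE 0.78), each with an adjusted p of 0.92 from limma. With 1 library left out these differences ran from -0.89 to -2.12 for *Igfbp4*, the ends being without WT replicate 2 and without WT replicate 1, and from -0.68 without WT replicate 2 to -1.64 without WT replicate 3 for *Igfbp2*. For *Igfbp6* they ran from -0.36 without WT replicate 3 to -1.69 without WT replicate 1. With a pseudocount of 0.1 they were -2.09, -2.03 and -1.79 for *Igfbp4*, *Igfbp2* and *Igfbp6*. The large standard errors of these 3 genes go with the spread among the WT libraries, whose range took in both *Brca1* KO values of *Igfbp4* and *Igfbp6* and 1 of the 2 of *Igfbp2*. In a fit without the minimum level, *Igfbp3* differed by -0.47 (SE 0.26), with an adjusted p of 0.89 from limma.

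The median member differed by -0.059 on this log2 scale and the median of all genes tested by 0.11. Of all genes tested, 65.5% had a value above 0, as did 3 of the 8 members. *Igfbp2*, *Igfbp4* and *Igfbp6*, all below 0, were tested only because of their WT values. The minimum level thus lowered both the median and the count of the members. Rescaling by median-of-ratios factors lowered the label difference of the median gene by 0.12, so differences of that size cannot be read as a direction. Under that scaling *Insr* moved from 0.048 to -0.069, and 2 of the 8 members and 48.7% of all genes were above 0.

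The label ranges of 0 of the 8 tested members did not overlap, in either direction. Among all genes tested, 17.5% were higher and 5.77% lower in *Brca1* KO without overlap. WT replicate 3 was the highest library for 5 of the 8 tested members (18.5% of all genes tested) and the lowest for 0 of 8 (51.9% of all genes tested). *Igfbp6*, among those 5, reached the minimum level only through that library.

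Without WT replicate 3, the adaptors and *Igfbp5* lay higher in the *Brca1* KO libraries. *Irs1*, *Irs2* and *Igfbp5* were then above both remaining WT libraries without overlap, which held for 23.5% of all genes tested. *Igfbp2* was below both, which held for 15.6% of all genes. *Igfbp2* had reached the minimum level only through those same WT libraries, which favoured a lower value in *Brca1* KO. The difference became 1.10 (SE 0.18) for *Irs2*, 0.62 (SE 0.13) for *Igfbp5* and -1.64 (SE 0.24) for *Igfbp2*. These 3 members had an unadjusted p under 0.05 in limma, as did 842 of all genes (7.33%), and an adjusted p of 0.67 by the Benjamini-Hochberg method, so none passed the threshold. *Igfbp4* differed by -1.19 (SE 0.90) and *Igfbp6* by -0.36 (SE 0.40) without that library.

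**Figure D3:**
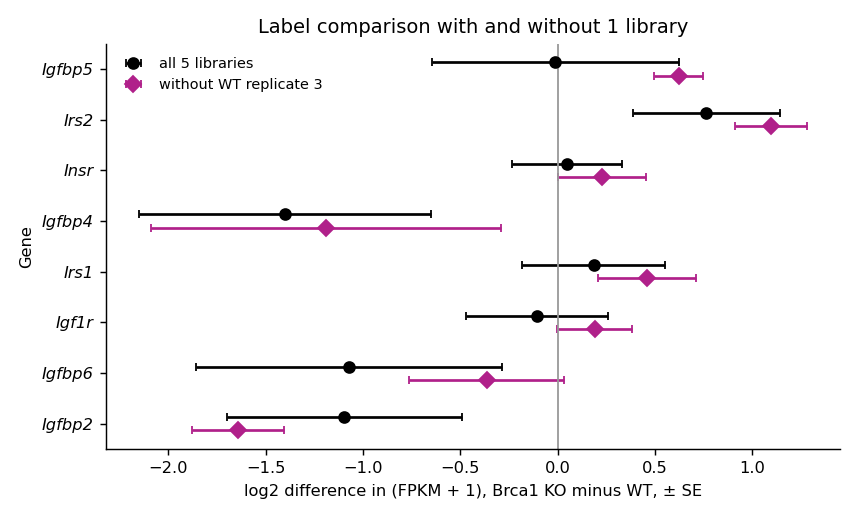
Difference in log2(FPKM + 1), *Brca1* KO minus WT, for the 8 tested members (points, limma estimate; bars, ± SE), with all 5 libraries in black and without WT replicate 3 in purple. *Igfbp5* moves from -0.011 to 0.62 and *Irs2* from 0.76 to 1.10 when that library is left out, and no value passed the adjusted threshold in either case.

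The genes around the members were read from 4 lists of 64 genes, of which 56 were tested and 0 passed the adjusted threshold in limma, with 2 of 56 at an unadjusted p under 0.05, where 3.24% of all genes were. The list of PI3K, AKT and mTOR signalling genes held those 2. *Foxo3*, a transcription factor that AKT keeps out of the nucleus, was at 64.4, 57.3 and 41.7 FPKM in the WT libraries and at 95 and 104 FPKM in the *Brca1* KO libraries. The *Brca1* KO libraries were above every WT library, by 0.88 (log2, SE 0.24), with an unadjusted p of 0.0126 and an adjusted p of 0.92 from limma. *Eif4ebp2*, a repressor of translation that mTOR inactivates, differed by 0.57 (log2, SE 0.22).

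*Deptor*, which encodes an inhibitor bound to mTOR, had the largest positive difference of that list, at 1.27 (log2, SE 0.54), with an adjusted p of 0.92 from limma. Its values were 8.33, 2.95 and 12.9 FPKM in the WT libraries and 18.8 and 17.8 FPKM in the *Brca1* KO libraries, without overlap. *Foxo1* was at 30.6, 27.5 and 31.6 FPKM in the WT libraries and at 49.5 and 33.4 FPKM in the *Brca1* KO libraries, also without overlap. The PI3 kinase subunit gene *Pik3r1* ran from 44.4 to 69.1 FPKM, with overlap of the labels. The ribosomal protein gene *Rps6* was the highest of the list at 755 to 1177 FPKM, and *Inpp5d*, a phosphatase gene of blood cells, was the lowest at 0.0326 to 4.07 FPKM.

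Of the 33 signalling genes, 29 had a difference above 0 (65.5% of all genes tested), with a median of 0.19 on the log2 scale. Without overlap, 12 of the 33 were higher in *Brca1* KO (17.5% of all genes tested) and 1 was lower (5.77%), *Rheb*, which encodes an activator of mTOR. The count of 29 depended on the scaling and on 1 library. It was 22 with median-of-ratios scaling, 23 with quantile normalization and 22 without WT replicate 3, where 48.7%, 55.9% and 54.2% of all genes were above 0. WT replicate 3 was the lowest library for 17 of the 33 (51.5%), near the 51.9% of all genes tested.

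**Figure D4:**
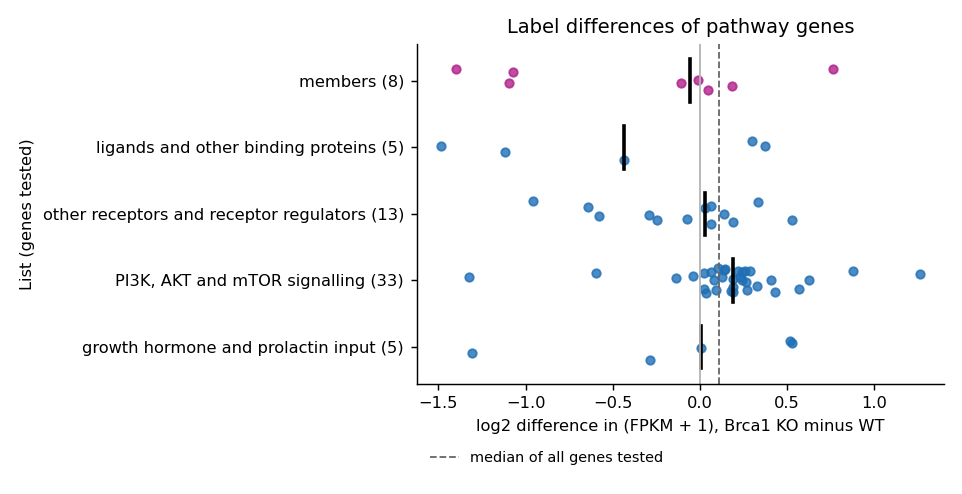
Difference in log2(FPKM + 1), *Brca1* KO minus WT, of each tested gene of the members (purple) and of 4 pathway lists (blue, with small vertical offsets for visibility); black bars mark list medians and the dashed line the median of all genes tested, 0.11. The signalling list has 29 of 33 genes above 0, while members spread from -1.40 to 0.76.

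Inputs that control IGF expression were read from 5 genes. *Ghr*, the growth hormone receptor gene, was the lowest of them by mean, at 7.17 to 11.1 FPKM, with a label difference of 0.0094 (log2, SE 0.25). *Stat5a*, a transcription factor gene downstream of prolactin and growth hormone receptors, was the highest, at 68.1, 43.3 and 35.8 FPKM in the WT libraries and at 75 and 63.1 FPKM in the *Brca1* KO libraries. *Stat5b* was at 31.4, 22.1 and 19.4 FPKM in the WT libraries. In the *Brca1* KO libraries it was higher without overlap, at 36.1 and 33.1 FPKM, as 17.5% of all genes tested were. WT replicate 3 had the least of both *Stat5* genes, as it had of 51.9% of all genes tested. *Prlr*, the prolactin receptor gene and one of the mature luminal markers, was at 148 FPKM in WT replicate 3 and at 5.61 to 10.3 FPKM elsewhere, with a median of 8.14 FPKM below the 10.8 FPKM of *Ghr*.

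Among further binding proteins and regulators, *Igfbp7*, which binds IGFs weakly, was at 5.37, 10.4 and 17.2 FPKM in the WT libraries and at 10.9 and 4.55 FPKM in the *Brca1* KO libraries. WT replicate 3 was highest and *Brca1* KO replicate 5 lowest. *Stc2*, whose product inhibits the protease PAPPA, was at 137 FPKM in WT replicate 3 and at 4.99 to 9.15 FPKM elsewhere, and was the highest of the ligand and carrier list by mean through that library. In the other 4 libraries *Igfals*, which encodes a partner of IGF and IGFBP complexes in serum, was higher, at 21.0 to 27.9 FPKM. *Socs3*, a feedback inhibitor of cytokine and insulin signalling, was the highest of the receptor regulators, at 32.9, 50.7 and 74.4 FPKM in the WT libraries and at 42.2 and 14.9 FPKM in the *Brca1* KO libraries.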

How the data were processed

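Luminal cells were sorted by flow cytometry and sequenced in 5 libraries. Per the submitters' processing notes, reads were trimmed with Trimmomatic 0.35, aligned to mm10 with TopHat2 2.0.13 and quantified with Cufflinks 2.2.1; the methods name a different TopHat version. The authors deposited FPKM values, with no counts, and the gene annotation is not given in the sources used here. Of 24346 rows, 27 whose names had been turned into dates were left out. Depth was gauged from the steps between small FPKM values once these were multiplied by the length of the transcript. Only 50% to 56.8% of those values lay within 0.15 of a whole fragment, so no count model was run and fragment numbers are approximate and cover counting error only.

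Values were analysed as log2(FPKM + 1) with limma 3.58.1 in R 4.3.3 (eBayes, trend on), over the 11481 genes whose mean reached 1 FPKM. The tests were two-sided and adjusted by the Benjamini-Hochberg method over all genes tested, at a threshold of 0.05. WT (n = 3) and *Brca1* KO (n = 2) were taken from the labels. The fit was tested on simulated data. Alternatives were a pseudocount of 0.1, median-of-ratios scaling, quantile normalization, no filter, a minimum of 5 FPKM, array weights, no trend and each library left out. Overlap of label ranges with each library left out was added after the data had been seen.

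The members and lists were chosen with earlier results of these data known. Genes named are the 10 members, list genes past the threshold, the highest and lowest of each list, those without overlap and with a log2 difference of at least 1, a preset group (*Igf2*, *Igf2r*, *Igfbp7*, *Ghr*, *Prlr*, *Stat5a*, *Stat5b*, *Pik3r1*, *Foxo1*, *Grb10* and 1 gene not reported here) and the 5 genes closest in pattern to the most variable member. *Foxo3*, *Eif4ebp2*, *Rheb* and *Igfals*, and the genes singled out in the closing section, were named after their values were seen. Coordinates are those of GENCODE M21, and promoter windows those of RefSeq. Figures were drawn with matplotlib 3.10.9, and tables made with pandas 2.3.3, numpy 2.4.6 and scipy 1.17.1 in Python 3.11.15.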

Additional observations from a re-analysis of the deposited data

Results flagged for a closer look

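The 5 libraries, taken as 1 group as the methods describe them, were searched for genes in which the highest or lowest library lay far from the other 4 by Dixon's criterion, over the 10 members and 64 pathway genes. Chance marks about 1 in 20 groups. Of all 19342 genes with a range above 0, 20.7% were marked. None of the 10 members was, and 11 of the 60 pathway genes with a range were, no larger a share than over all genes. Of the 11, 7 were marked through a high value and 2 through a low value in WT replicate 3. How many of all genes were marked through that library was not counted, so these counts are not a trait of the pathway. High in WT replicate 3 were *Pappa* (0.898 FPKM) and *Pappa2* (0.0679 FPKM), proteases that cut IGF binding proteins, and *Stc2* (137 FPKM), which inhibits them. *Grb14* (3.42 FPKM), an adaptor that restrains the insulin receptor, was also high there, as were the lipid phosphatase gene *Inppl1* (56.6 FPKM), *Prlr* (148 FPKM) and *Jak2* (21.9 FPKM). Low in WT replicate 3 were the PI3 kinase gene *Pik3cb* (6.72 FPKM) and *Akt1s1* (18.8 FPKM), an mTOR inhibitor gene. *Irs4* was highest in *Brca1* KO replicate 4 (0.0491 FPKM) and *Socs1* in *Brca1* KO replicate 5 (7.02 FPKM).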

How the results depend on the processing

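No member and no pathway gene passed the adjusted threshold under any of the alternatives run. Over all genes the count of 0 became 1 with array weights, and ran from 0 to 18 when 1 library was left out (2 without WT replicate 1, 18 without *Brca1* KO replicate 4, 4 without *Brca1* KO replicate 5); the cause was not tested. With a lone *Brca1* KO library, that library was assumed to vary like the WT libraries. The number of tested members without overlap of the labels ran from 0 to 4 with 1 library left out, and was 2 without WT replicate 1 (*Igfbp4* and *Igfbp6*, lower in *Brca1* KO, as 12.3% of all genes were) and 4 without WT replicate 3 (3 higher, as 23.5% of all genes were, and *Igfbp2* lower, as 15.6% were). It was 1 without *Brca1* KO replicate 4 (*Irs2*, higher, as 29.5% were) and 1 without *Brca1* KO replicate 5 (*Igfbp2*, lower, as 12.4% were). The log2 label difference of *Irs2* stayed positive (0.50 to 1.23) in every alternative. Those of *Igfbp2*, *Igfbp4* and *Igfbp6* were negative in every alternative run for them. These genes reached the minimum level only through WT libraries, which favoured a negative sign, so its constancy is no separate support. With a minimum of 5 FPKM these 3 genes were not tested. Differences near 0 changed sign. *Igf1r* was 0.092 with array weights and -0.30 to 0.19 with 1 library left out. *Insr* was -0.069 with median-of-ratios scaling, -0.072 with quantile normalization and -0.17 to 0.27 with 1 library left out. *Irs1* was -0.10 to 0.46 with 1 library left out. *Igfbp5* was 0.048 with quantile normalization, 0.61 with array weights and -0.35 to 0.62 with 1 library left out. With a pseudocount of 0.1 the mean log2 level of 6 members moved by more than its SD between libraries. Depth limits *Igf1*, *Igfbp2* and *Igfbp6*, which rested on under 3 estimated fragments in at least 1 library.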
